A study of Homo sapiens with 12 samples.

Results

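Interferon-stimulated genes are the genes that cells switch on when type I, type II or type III interferon is sensed, and 49 of them were followed through Ras-induced senescence in human fibroblasts with and without knockdown of the interleukin-1 receptor. The 49 were listed by symbol from general knowledge of the family, with earlier results of these data known. A listed gene was kept where its normalized count was 10 or more in at least 2 of the 12 libraries. The set that passed held 47 genes, of 13924 genes that pass the same rule and 27106 in the table. IFNB1, the gene of interferon beta, was at 0 in all 12 libraries. IFI44L reached 10 in 1 library only, with 9.59 and 16.9 normalized counts in the shIL1R libraries of day 10 and at most 3.54 elsewhere. Just inside the threshold, MX2 reached 10.8 and 13.5 in those 2 libraries and at most 7.08 elsewhere. The counts given for the 47 below therefore leave out both genes that failed.

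The cells were IMR90, a normal human lung fibroblast line, carrying telomerase (hTERT) and RasERT2, an oncogenic Ras fusion that tamoxifen switches on. The knockdown cells, called shIL1R, carried a hairpin against the interleukin-1 receptor and are labelled as its knockdown, and the control cells, called shScr, carried a scramble hairpin and are labelled wild type. Both had 0.5 ug/ml doxycycline to induce the hairpin and then 200 nM tamoxifen, or ethanol as its control. Poly(A) RNA was sequenced at day 0 (growing), day 4 (beginning to senesce) and day 10 (senescent), which gives 6 groups of 2 libraries each. The series speaks of 2 hairpins against the receptor and libraries of a group are labelled 1 and 2. What the numbers stand for is not given, so p-values measure the spread between these libraries, which may be technical, and a hairpin difference cannot be told apart from a replicate difference. All values are from cells that carry hTERT, the Ras fusion and a hairpin vector, so none of the groups is unmodified.

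Interferons bind receptors on the cell surface (IFNAR1 and IFNAR2 for type I), whose kinases JAK1 and TYK2 phosphorylate transcription factors such as STAT2. STAT2 and IRF9 act in the complex ISGF3, which binds an element called ISRE in the promoters of most interferon-stimulated genes. Signalling by interferon gamma acts through another element, GAS, and IRF1 binds sites much like the ISRE. In senescent fibroblasts, type I interferon signalling is known as a late arm of the secretory response, downstream of cytosolic DNA sensing, while interleukin-1 signalling is known to drive its inflammatory arm.

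The family shares this element. Of the 49 genes 40 matched a promoter in the RefSeq table (GRCh38.p14, 250 bases before to 50 after the start). The letters GAAANNGAAA, searched on both strands with overlaps counted, stood in 24 of the 40 (60%), against 3.65% of 27305 promoters in the table and 2.77% of 10336 promoters of genes tested here. The letters TTCNNNGAA, the core of a GAS element, stood in 11 (27.5%), against 7.88% of all promoters. Of the 24, 14 held GAAANNGAAA more than once. The deposited counts were made on hg19, so these GRCh38.p14 windows serve to show sequence only. Shown are 5 promoters whose genes carry the results below: OAS3 and IFIT1, which fell by day 4, and BST2, ISG15 and IFI6, which rose by day 10. Each runs in the direction of transcription, with matches to GAAANNGAAA on either strand in capitals. OAS3 lies at chr12:112938224-112938523 (+), IFIT1 at chr10:89392373-89392672 (+), BST2 at chr19:17405581-17405880 (-), ISG15 at chr1:1013247-1013546 (+) and IFI6 at chr1:27672143-27672442 (-).
OAS3: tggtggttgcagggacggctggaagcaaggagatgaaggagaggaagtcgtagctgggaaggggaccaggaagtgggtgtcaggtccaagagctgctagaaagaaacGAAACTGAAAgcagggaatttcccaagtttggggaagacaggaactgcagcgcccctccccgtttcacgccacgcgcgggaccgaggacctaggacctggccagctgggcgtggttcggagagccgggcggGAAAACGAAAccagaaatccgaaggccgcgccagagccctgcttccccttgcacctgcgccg
IFIT1: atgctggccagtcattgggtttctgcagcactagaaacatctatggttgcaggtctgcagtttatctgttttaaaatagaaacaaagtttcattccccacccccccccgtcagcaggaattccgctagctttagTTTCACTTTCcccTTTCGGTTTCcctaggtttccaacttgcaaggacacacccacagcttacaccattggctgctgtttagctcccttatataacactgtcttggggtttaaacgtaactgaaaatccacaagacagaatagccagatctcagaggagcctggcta
BST2: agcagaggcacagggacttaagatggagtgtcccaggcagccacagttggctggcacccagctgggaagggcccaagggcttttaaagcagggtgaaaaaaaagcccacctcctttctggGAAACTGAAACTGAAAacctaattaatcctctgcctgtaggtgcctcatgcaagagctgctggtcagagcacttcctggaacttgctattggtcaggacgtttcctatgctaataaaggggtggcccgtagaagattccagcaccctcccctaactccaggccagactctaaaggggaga
ISG15: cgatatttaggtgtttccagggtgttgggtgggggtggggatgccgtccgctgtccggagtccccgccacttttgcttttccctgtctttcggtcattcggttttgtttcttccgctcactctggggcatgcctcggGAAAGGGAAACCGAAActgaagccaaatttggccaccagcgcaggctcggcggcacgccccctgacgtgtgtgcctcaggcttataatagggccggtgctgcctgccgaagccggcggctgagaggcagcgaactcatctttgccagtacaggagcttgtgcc
IFI6: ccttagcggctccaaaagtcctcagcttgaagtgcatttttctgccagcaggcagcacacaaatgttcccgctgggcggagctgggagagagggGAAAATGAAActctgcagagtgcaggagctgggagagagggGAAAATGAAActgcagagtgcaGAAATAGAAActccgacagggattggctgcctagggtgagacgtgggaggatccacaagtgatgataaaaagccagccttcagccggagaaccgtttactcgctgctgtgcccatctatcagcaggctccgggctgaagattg
In BST2 and ISG15 the matches overlap by sharing a GAAA. In IFIT1 both matches begin within 116 bases before the start, read on the opposite strand, and in IFI6 all 3 matches begin 93 to 156 bases before it. OAS3 has a match 143 bases and another 12 bases before its start. A match describes letters and is not evidence of binding.

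The hairpin target was checked first. IL1R1 had 731 and 378 normalized counts in shIL1R cells against 1509 and 1552 in shScr cells at day 0, 272 and 86.4 against 1546 and 1423 at day 4, and 295 and 280 against 1580 and 1240 at day 10. The log2 differences were −1.54 ± 0.42 (standard error; limma adjusted p = 0.281), −3.27 ± 0.42 (0.0205) and −2.28 ± 0.42 (0.0102). At day 4 the call needed every one of the 4 shScr libraries of days 0 and 4 (limma adjusted p 0.0636 to 0.144 with 1 left out), and at day 10 it needed shScr day 10 replicate 2 (0.0708 without it). Library depth ran from 24140324 to 30127727 reads, so 1 read is worth 0.8345 to 1.199 normalized counts and 3 reads, the floor used for a gene at 0, 2.503 to 3.597. All 10 fibroblast markers checked were expressed. Markers of other cell types were mixed. Below the threshold for testing were 9 of 11 leukocyte markers (CD3E and HLA-DRA at 0), 6 of 7 epithelial ones (KRT5 at 0), 2 of 7 endothelial ones (CDH5 at 0) and 1 of 6 smooth muscle and neural ones. The summed endothelial markers ran from 1220 to 3283 over the 12 libraries, mostly TEK (992 to 3249). TIE1 had 325 and 199 normalized counts at day 10 against 27.8 and 14.6 at day 0 in shIL1R cells, and 539 and 403 against 32.1 and 32.5 in shScr cells, and KDR had 216 and 102 against 4.49 and 12.9, and 96.8 and 51.6 against 2.76 and 1.67. The smooth muscle and neural markers summed to 4988 to 7751 and the epithelial ones to 48.2 to 177. The summed leukocyte markers were 73.1 and 39.5 normalized counts in shIL1R cells and 192 and 148 in shScr cells at day 10, against 20.0 to 28.7 at day 0 in all 4 libraries. LAPTM5 (37.2 and 6.77 in shIL1R, 142 and 120 in shScr cells at day 10) and CSF1R (27.6 and 21.4, 30.7 and 15.2) were the only leukocyte markers tested, and PTPRC, which encodes the pan-leukocyte CD45, had at most 3.04. The part of such cells in the results was not tested, and in bulk RNA fewer cells of a kind and less RNA per cell cannot be told apart.

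The day 10 libraries of a genotype differed from each other in these genes. In shIL1R day 10, 40 of the 47 genes were higher in replicate 2 than in replicate 1, by a median of 0.38 on the log2 scale, and 10 differed by over 2-fold. In shScr day 10, 45 of the 47 were lower in replicate 2, by a median of −0.65, and 16 differed by over 2-fold. Among all genes tested the corresponding shares higher in replicate 2 were 49.4% and 51.8%, the medians −0.006 and 0.009, and the shares beyond 2-fold 7.58% and 3.06%. In the 4 groups of days 0 and 4 the medians of the 47 lay between −0.05 and 0.06. Thus MX1, a dynamin-like GTPase that traps viral ribonucleoprotein, had 158 and 342 normalized counts in shIL1R day 10 and 162 and 30.4 in shScr day 10 (replicates 1 and 2). OAS1, an oligoadenylate synthetase, had 22.8 and 95.9 against 23.6 and 0. ISG15, a ubiquitin-like modifier, had 439 and 940 against 435 and 287. Replicate 1 of the 2 genotypes was nearly level in all 3 genes, and replicate 2 was high in shIL1R and low in shScr cells.

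**Figure D1:**
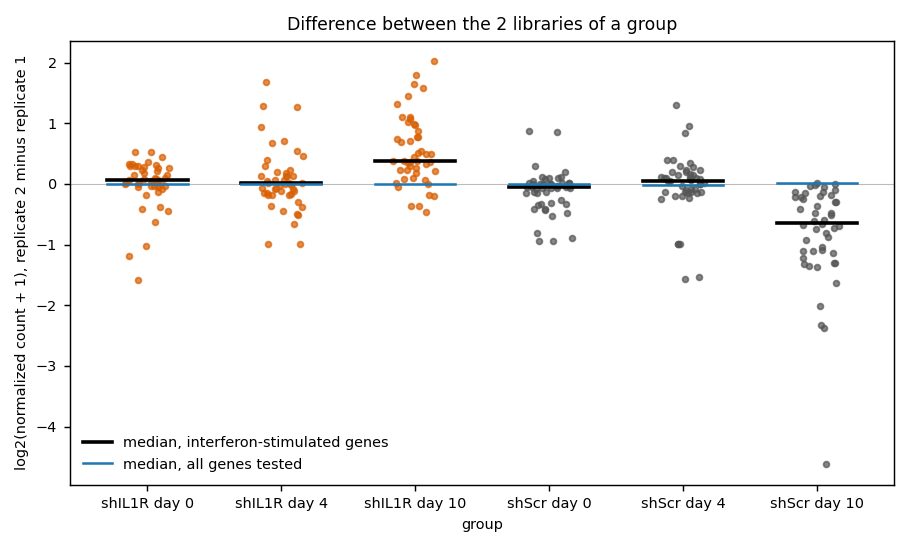
Log2(normalized count + 1) of replicate 2 minus replicate 1 for the 47 interferon-stimulated genes (points) in each group of 2 libraries, with the median of the 47 (black line) and of all genes tested (blue line). The black line sits at 0.38 in shIL1R day 10 and −0.65 in shScr day 10 and between −0.05 and 0.06 in the other 4 groups, while the blue line stays near 0.

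On the first principal component of all genes (68.9% of variance) the day 10 libraries lay at 77.25 and 45.95 in shIL1R and at 90.54 and 89.21 in shScr. Replicate 2 of shIL1R day 10 thus stood nearer to the day 4 libraries, which lay between −11.18 and 2.80, whereas the shScr day 10 libraries were close together on this axis and apart in the interferon-stimulated genes. Some genes of the family did not follow these splits. In shIL1R day 10, replicate 2 was lower for ISG20, SP100, EIF2AK2, IRF1, HERC5, IFI16 and IFI44, and in shScr day 10 SAMD9L and EIF2AK2 were level (1057 and 1061, and 2118 and 2145). Results at day 10 are therefore given with and without these libraries.

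By day 4 of Ras induction the family moved in both directions, and little in sum. In shIL1R cells 7 genes rose and 7 fell between day 0 and day 4, that is 14 of 47, against 40.4% of all genes tested called in this comparison, 20.1% higher and 20.3% lower (limma, adjusted p below 0.05). In shScr cells 11 rose and 3 fell, again 14 of 47, against 38.3% of all genes, 19.4% higher and 18.9% lower. The median log2 change of the 47 was −0.05 in shIL1R cells and 0.09 in shScr cells, beside −0.01 for all genes in each, and −0.07 and 0.06 with genes at 0 reads set to their bounds. The calls in every fit that left 1 library out were 8 of the 14 in shIL1R (GBP2, IFI16, IFIT1, ISG20, LGALS3BP, OAS3, SP100 and UBE2L6) and 7 of the 14 in shScr cells (the same list without SP100).

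The largest called falls were those of OAS3, IFIT1 and GBP2, while 1 of 5 genes of the OAS and PKR group fell in each genotype, and 2 of 4 IFIT genes fell in shIL1R and 1 in shScr cells. OAS3, which makes the oligoadenylates that activate RNase L, had 163 and 165 normalized counts at day 4 against 702 and 741 at day 0 in shIL1R cells, and 115 and 98.4 against 718 and 697 in shScr cells. The days did not overlap in either genotype, and the log2 changes were −2.13 ± 0.44 (limma adjusted p = 0.00316) and −2.72 ± 0.44 (0.000689). IFIT1, which binds viral RNA that lacks cap methylation, had 10.8 and 27.7 at day 4 against 107 and 112 at day 0 in shIL1R cells, and 19.0 and 18.0 against 87.3 and 83.5 in shScr cells. It fell by 2.59 ± 0.53 on the log2 scale in shIL1R (limma adjusted p = 0.00289) and by 2.15 ± 0.53 in shScr cells (0.00818). Its neighbours moved less or were not called: IFIT5 fell in shIL1R cells by 0.74 ± 0.20 (limma adjusted p = 0.012, lost without any 1 library of the 2 groups), and IFIT2 and IFIT3 were called in neither genotype. GBP2, a guanylate-binding GTPase of cell-autonomous defence, had 27.4 and 53.2 against 145 and 180 in shIL1R cells and 22.8 and 30.3 against 136 and 109 in shScr cells. These are log2 changes of −2.05 ± 0.31 and −2.17 ± 0.31 (limma adjusted p = 0.000483 and 0.000299). The related GBP1 was not called at day 4 in either genotype.

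The rises were smaller. Of the 4 transcription factors 2 were called higher in shIL1R and 3 in shScr cells. ISG20, an RNA exonuclease, had 52.8 and 47.6 normalized counts at day 4 against 13.5 and 19.8 at day 0 in shIL1R cells, and 61.8 and 54.0 against 11.02 and 20.9 in shScr cells. Its log2 rises were 1.56 ± 0.33 (limma adjusted p = 0.00362) and 1.86 ± 0.33 (0.00123). UBE2L6, the enzyme that conjugates ISG15, rose by 0.70 ± 0.12 in shIL1R and 0.81 ± 0.12 in shScr cells (limma adjusted p = 0.00123 and 0.000493). IFI16, a nuclear DNA sensor, rose by 0.66 ± 0.10 and 0.79 ± 0.10 (0.00044 and 0.000131), and LGALS3BP, a secreted galectin-binding glycoprotein, by 0.47 ± 0.10 and 0.49 ± 0.10 (0.00344 and 0.00284). The ISGF3 subunits STAT2 and IRF9 moved the same way. STAT2 rose by 0.63 ± 0.14 in shIL1R (limma adjusted p = 0.00557) and 0.61 ± 0.14 in shScr cells (0.00672), and IRF9 by 0.65 ± 0.18 (0.0151) and 0.60 ± 0.18 (0.0232). The STAT2 calls were lost without replicate 1 of shIL1R day 0 or replicate 2 of shScr day 0, and those of IRF9 without most single libraries of the days compared. The nuclear body protein SP100 rose by 0.70 ± 0.11 and 0.47 ± 0.11 (limma adjusted p = 0.000543 and 0.00534), the second lost without replicate 1 of shScr day 0.

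The remaining calls at day 4 were each made in 1 genotype and ended when a single library was left out. In shIL1R cells EPSTI1 (−0.86 ± 0.26, limma adjusted p = 0.02), SAMD9 (−0.47 ± 0.15, 0.0277) and SAMD9L (−0.62 ± 0.17, 0.0136) were lower and were not called without replicate 2 of shIL1R day 4 or of shIL1R day 0. SAMD9 and SAMD9L restrict poxviruses. With shIL1R day 4 replicate 1 left out SAMD9 was at −0.72, and with replicate 2 left out at −0.22. In shScr cells the RNA sensor DDX58 (RIG-I, 0.58 ± 0.18), the kinase EIF2AK2 (PKR, 0.30 ± 0.11), IRF1 (0.36 ± 0.10) and TRIM22 (0.53 ± 0.17) were higher with limma adjusted p from 0.0115 to 0.0478, and were not called without replicate 2 of shScr day 0, where the TRIM22 value was 0.32. The promoters of called genes were counted as a description. GAAANNGAAA stood in 2 of the 7 promoters matched among genes that rose in shIL1R cells and 5 of the 6 among those that fell, and in 3 of 10 and 2 of 2 in shScr cells. Of the genes not called it stood in 16 of 25 and 18 of 26.

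**Figure D2:**
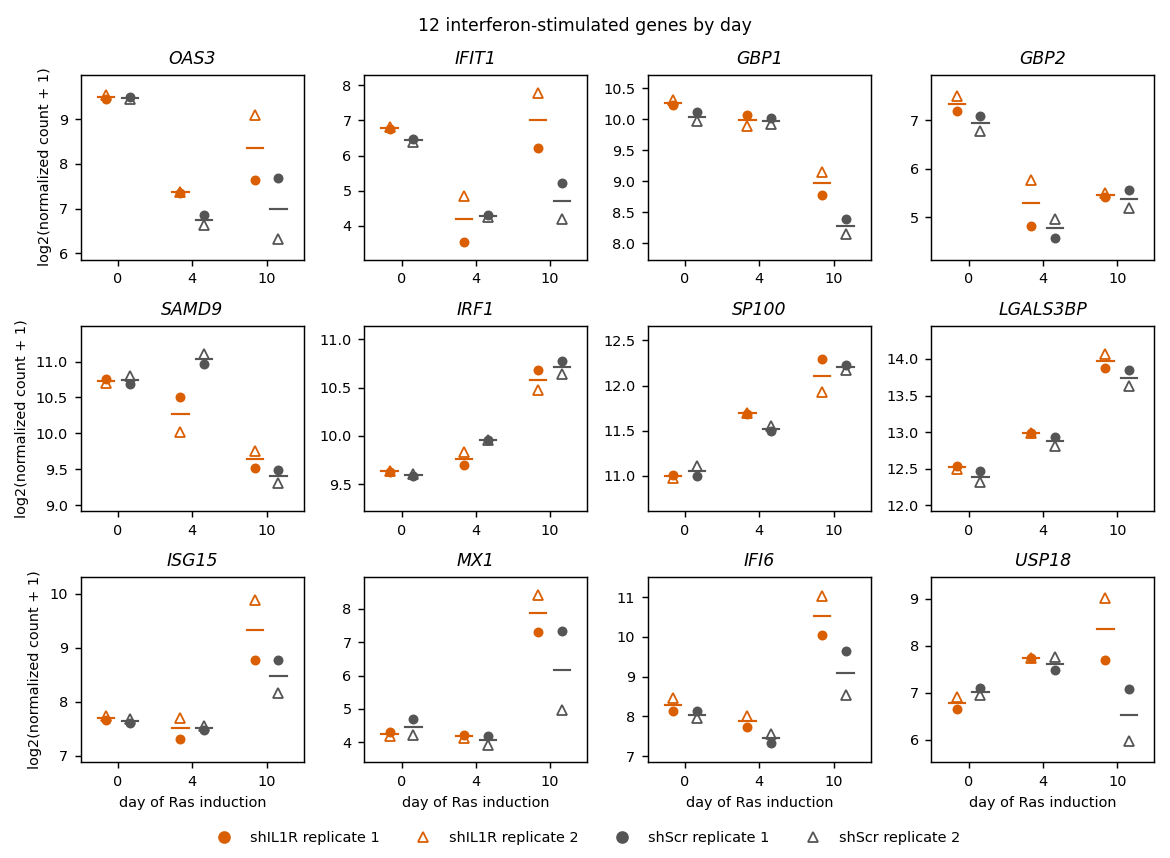
Log2(normalized count + 1) of 12 interferon-stimulated genes by day, with shIL1R libraries left (orange) and shScr libraries right (grey) at each day, replicate 1 as filled circles, replicate 2 as open triangles and the mean of the 2 as a line. OAS3, IFIT1 and GBP2 drop by day 4 in both genotypes, GBP1 and SAMD9 are lowest at day 10, IRF1, SP100 and LGALS3BP climb with little spread, and ISG15, MX1, IFI6 and USP18 are split between the replicates of day 10.

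By day 10 most of the family was called, as were most of all genes tested. In shIL1R cells 29 genes rose and 6 fell relative to day 0, that is 35 of 47, against 60.3% of all genes tested called in this comparison, 30.0% higher and 30.3% lower. In shScr cells 21 rose and 13 fell, that is 34 of 47, against 63.8% called, 32.5% higher and 31.3% lower. The median log2 change of the 47 was 0.87 in shIL1R and 0.42 in shScr cells, beside 0.01 for all genes in each. The balance in shScr cells turned on the day 10 libraries: without replicate 1 there were 11 rises and 14 falls among 46 genes (median 0.03), and without replicate 2 27 rises and 7 falls (median 0.75). Of the 47, 9 genes reach 10 in 2 libraries only by way of day 10 (IFI27, MX2, OAS1, OAS2, OASL, RSAD2, HERC5, CMPK2 and BST2), so the filter favours their rise. Without them 22 rose and 6 fell in shIL1R cells (median 0.65) and 16 rose and 13 fell in shScr cells (median 0.32), of 38. In shIL1R cells 27 of the 35 calls, 22 higher and 5 lower, were made in all 12 fits that left 1 library out, and in shScr cells 17 of the 34, 10 higher and 7 lower. These kept rises include BST2, CMPK2, IFI27, OAS1 and RSAD2 in shIL1R cells and BST2, CMPK2 and RSAD2 in shScr cells. The filter favours the rise of each, so their being kept is a description. Leaving out replicate 1 of day 10, the library with the higher values, ended the shScr calls of IFI6, IFIH1, IFITM3, ISG15, MX1, OAS2, PARP14, TRIM22 and XAF1.

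Of the 4 transcription factors of the set, IRF1 and STAT2 rose in both genotypes and IRF7 and IRF9 were called in shIL1R but not in shScr cells, with interactions that did not pass (limma adjusted p = 0.569 and 0.253). IRF1, a factor that interferon gamma induces, had 1640 and 1424 normalized counts at day 10 against 789 and 794 at day 0 in shIL1R cells, and 1758 and 1597 against 765 and 778 in shScr cells. The log2 rises were 0.95 ± 0.10 (limma adjusted p = 8.66e-06) and 1.12 ± 0.10 (1.97e-06). STAT2 rose by 0.83 ± 0.14 and 0.81 ± 0.14 (limma adjusted p = 0.000508 and 0.000493). IRF9 rose in shIL1R cells by 0.98 ± 0.18 (limma adjusted p = 0.000734), and in shScr cells had 1148 and 713 at day 10 against 693 and 671 at day 0 and was not called. IRF7, the factor that amplifies interferon alpha genes, rose in shIL1R cells by 1.05 ± 0.32 (limma adjusted p = 0.0148), a call lost without replicate 2 of shIL1R day 10 or replicate 1 of shIL1R day 0.

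Some effectors near 0 in growing cells were detected at day 10. BST2, RSAD2, CMPK2, OAS1 and OAS2 were tested by way of their day 10 values alone, so a rise was built into their entry and their calls are given as a description. BST2 (tetherin), which holds budding virions at the membrane, had normalized counts of 0.898 and 1.72 in growing shIL1R cells, 0.977 and 0 by day 4, then 19.2 and 32.7 by day 10. In shScr cells it was at 0 in both libraries of day 0, at 2.85 and 0.947 by day 4, and at 16.5 and 10.1 by day 10, at least 5.07-fold higher than a floor of 3 reads per library. RSAD2 (viperin), a radical enzyme that blocks viral RNA synthesis, was at 0 in both shIL1R libraries of day 0 and had 20.4 and 28.2 at day 10, at least 9.21-fold higher than the same floor, and in shScr cells it had 27.1 and 8.10 at day 10 against 0.919 and 0 at day 0. The adjacent CMPK2, a mitochondrial nucleotide kinase, had 37.2 and 39.5 against 7.18 and 2.58 in shIL1R cells and 63.7 and 44.6 against 9.19 and 6.68 in shScr cells. These 3 genes were called in both genotypes and in every fit that left 1 library out (limma adjusted p from 0.000227 to 0.00206 with all libraries). OAS2 and OAS1 appeared as well. OAS2 had 32.4 and 68.9 against 0.898 and 0.861 in shIL1R cells (limma adjusted p = 0.000146) and 9.44 and 3.04 against 0 and 0 in shScr cells (0.00522), there lost without replicate 1 of shScr day 10. OAS1 was at 0 in the shIL1R libraries of day 0 and had 22.8 and 95.9 at day 10, at least 22.5-fold higher by the mean and 8.64-fold by replicate 1 alone (limma adjusted p = 0.00247), and was not called in shScr cells.

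Genes expressed throughout rose by smaller factors. LGALS3BP had 15050 and 17130 normalized counts at day 10 against 5950 and 5786 at day 0 in shIL1R cells, and 14800 and 12700 against 5653 and 5084 in shScr cells, with log2 rises of 1.45 ± 0.10 and 1.35 ± 0.10 (limma adjusted p = 5.61e-07 and 6.49e-07). UBE2L6 rose by 1.38 ± 0.12 and 1.17 ± 0.12 (limma adjusted p = 3.66e-06 and 1.04e-05) and SP100 by 1.12 ± 0.11 and 1.15 ± 0.11 (5.76e-06 and 3.72e-06). EIF2AK2, the kinase that halts translation on sensing double-stranded RNA, rose by 0.47 ± 0.11 and 0.57 ± 0.11 (0.00308 and 0.000818), with 0.29 in shIL1R cells without replicate 1 of day 10. Their libraries of day 10 stood above those of day 0 in both genotypes, without overlap.

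Several effectors rose in shIL1R cells with a wide split between the day 10 replicates. MX1 had 158 and 342 normalized counts at day 10 against 18.9 and 17.2 at day 0 in shIL1R cells, and 162 and 30.4 against 24.8 and 17.5 in shScr cells. The log2 rises were 3.62 ± 0.61 (limma adjusted p = 0.00039) and 1.71 ± 0.61 (0.0291), the second lost when either shScr library of day 0 or the first of day 10 was left out. The shScr value was 0.52 without replicate 1 and 2.90 without replicate 2 of day 10. IFI6, a mitochondrial and endoplasmic reticulum protein that counters apoptosis and flavivirus replication, had 1048 and 2067 against 279 and 350 in shIL1R cells, and 794 and 371 against 278 and 249 in shScr cells. It rose by 2.23 ± 0.35 in shIL1R (limma adjusted p = 0.000218) and 1.04 ± 0.35 in shScr cells (0.0209), the second lost without replicate 1 of shScr day 10 (value 0.50) or either replicate of shScr day 0 and 1.59 without replicate 2. ISG15 rose by 1.63 ± 0.30 and 0.82 ± 0.30 (limma adjusted p = 0.000731 and 0.0326), again with the shScr call lost without that library, and the shIL1R value was 1.09 without replicate 2 of day 10. IFI27, a mitochondrial protein strongly induced by interferon alpha, had 26.4 and 84.7 against 6.29 and 2.58 in shIL1R cells, a rise of 3.25 ± 0.66 (limma adjusted p = 0.0014), and 27.1 and 11.1 against 7.35 and 3.34 in shScr cells, where it was not called. IFI27 was tested by way of its day 10 values alone, so a rise was built into its entry and its call is a description. USP18, the protease that removes ISG15 and restrains IFNAR2, rose in shIL1R cells by 1.56 ± 0.40 (limma adjusted p = 0.00553), or by 0.90 without replicate 2 of day 10.

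Other genes of the family fell. GBP1, a large GTPase induced by interferon gamma, had 440 and 568 normalized counts at day 10 against 1197 and 1274 at day 0 in shIL1R cells, and 335 and 282 against 1107 and 1006 in shScr cells. The log2 changes were −1.30 ± 0.14 (limma adjusted p = 1.1e-05) and −1.78 ± 0.14 (8.41e-07). GBP2, its neighbour, stayed down at −1.88 ± 0.31 and −1.56 ± 0.31 (limma adjusted p = 0.000307 and 0.000983). SAMD9 had 733 and 862 against 1728 and 1671 in shIL1R cells and 719 and 634 against 1642 and 1783 in shScr cells, falls of 1.09 ± 0.15 and 1.34 ± 0.15 on the log2 scale (limma adjusted p = 8.01e-05 and 1.49e-05). SAMD9L fell by 0.94 ± 0.17 and 0.82 ± 0.17 (limma adjusted p = 0.000634 and 0.00138) and IFIT5, an RNA-binding protein, by 1.02 ± 0.20 and 1.19 ± 0.20 (0.000921 and 0.00029). All 5 were called in every fit that left 1 library out, in both genotypes, though the shIL1R value of IFIT5 was −0.68 without replicate 1 of day 10.

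The OAS genes lie next to each other on chromosome 12 in the order OAS1, OAS3, OAS2. OAS1 and OAS2 reached the threshold at day 10 only, so their rise was built in and is not set against OAS3. At days 0, 4 and 10 OAS3 counts (normalized) were 702 and 741, 163 and 165, and 198 and 543 in shIL1R cells, and 718 and 697, 115 and 98.4, and 204 and 79.0 in shScr cells. Relative to day 0 it was lower at day 10 by 1.14 ± 0.44 on the log2 scale in shIL1R (limma adjusted p = 0.0436) and by 2.47 ± 0.44 in shScr cells (0.000512). The shIL1R call was lost without replicate 1 of that group (value −0.41) and without most other single libraries, and the value was −1.86 without replicate 2. In shScr cells the IFIT genes were low too. IFIT1 had 36.6 and 17.2 at day 10 against 87.3 and 83.5 at day 0 and IFIT2 16.5 and 6.08 against 57.0 and 45.1, falls of 1.72 ± 0.53 and 2.21 ± 0.60 (limma adjusted p = 0.0139 and 0.0074), both lost without replicate 2 of shScr day 10. In shIL1R cells IFIT1 had 73.1 and 221 against 107 and 112 and IFIT2 15.6 and 56.4 against 56.6 and 69.7, and neither was called.

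**Figure D3:**
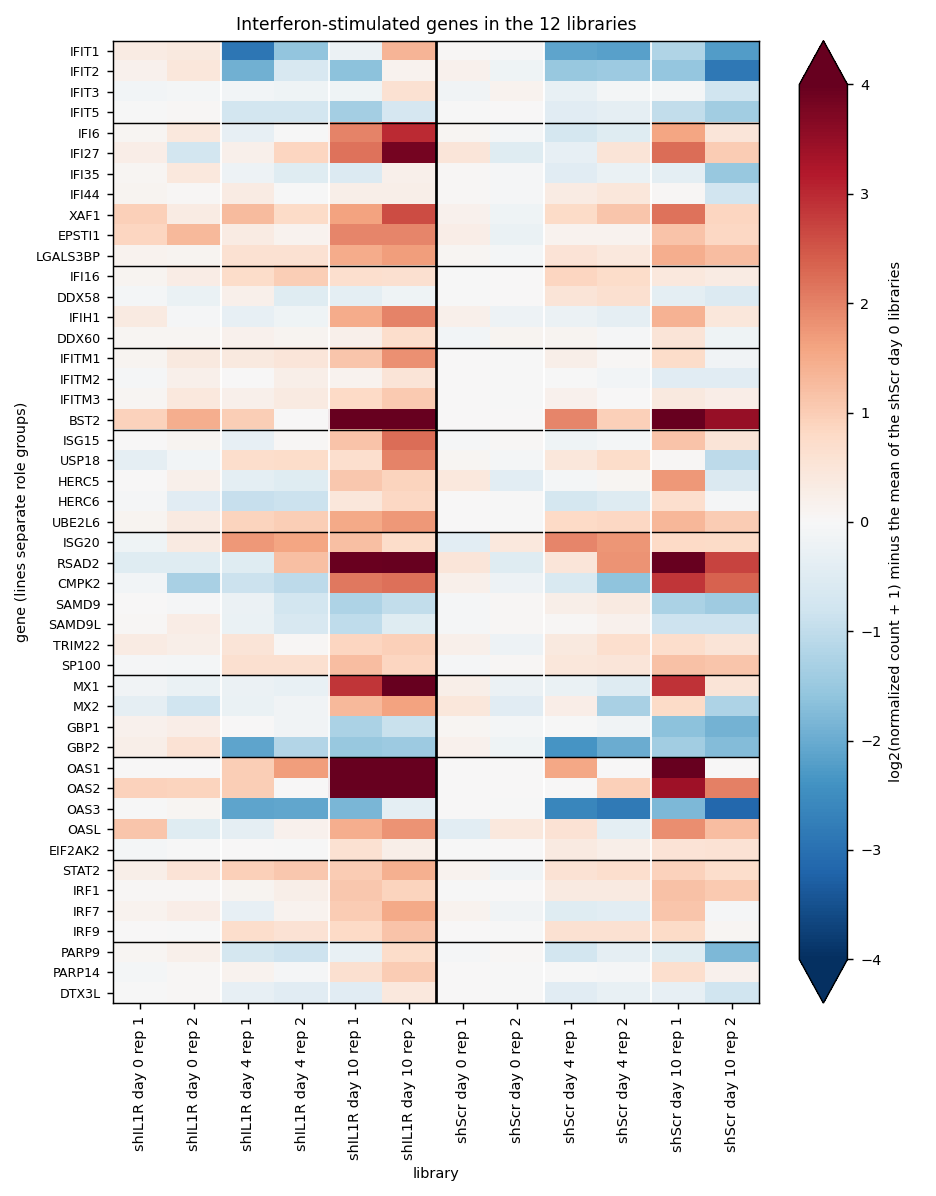
Log2(normalized count + 1) of the 47 genes (rows, by role group) in the 12 libraries (columns, shIL1R left of shScr, days in order) minus the mean of the shScr day 0 libraries; red is higher, blue lower, and the scale ends at 4. The columns of day 10 hold both red rows (BST2, RSAD2, CMPK2, OAS1, OAS2, MX1) and blue rows (GBP1, GBP2, SAMD9, OAS3), and within day 10 replicate 2 is redder in shIL1R and paler or bluer in shScr cells.

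With all libraries, more genes were called higher than lower in each genotype between day 4 and day 10. In shIL1R cells 23 genes rose and 2 fell, that is 25 of 47, against 35.9% of all genes called (17.6% higher and 18.3% lower), and the median log2 change was 0.77. In shScr cells 16 rose and 10 fell, that is 26 of 47, against 44.1% (21.7% higher and 22.4% lower), and the median was 0.27. The filter favours the rise of the 9 genes that were tested by way of day 10 alone. Without them 17 rose and 2 fell in shIL1R cells (median 0.57) and 12 rose and 10 fell in shScr cells (median 0.19), of 38. The rises included IRF1 (0.82 ± 0.10 in shIL1R and 0.75 ± 0.10 in shScr cells, limma adjusted p = 0.000133 and 0.000132) and LGALS3BP (0.98 ± 0.10 and 0.87 ± 0.10, 5.92e-05 and 7.35e-05). IFIT1 rose again in shIL1R cells by 2.81 ± 0.53 (limma adjusted p = 0.00218), and in shScr cells had 36.6 and 17.2 at day 10 against 19.0 and 18.0 at day 4. DDX58 fell in shScr cells by 1.04 ± 0.18 (limma adjusted p = 0.000957), with 524 and 469.9 normalized counts at day 10 against 986 and 1061 at day 4. GBP1 fell by 1.01 ± 0.14 in shIL1R and 1.70 ± 0.14 in shScr cells (limma adjusted p = 0.000296 and 9.26e-06). The calls in all fits that left 1 library out were 16 of 25 in shIL1R and 9 of 26 in shScr cells. The 16 include BST2, CMPK2 and RSAD2 and the 9 include CMPK2, genes whose rise the filter favours. The shScr median turned on the day 10 libraries: it was −0.09 over 46 genes without replicate 1 and 0.71 over 47 without replicate 2. Whether the change from day 4 to day 10 differed between genotypes was not tested.

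No gene of the family was called by limma between knockdown and control cells while they grew or at day 4. At day 0, 0 of 47 genes were called between shIL1R and shScr cells, against 0.0646% of all genes (limma), and 2 had an unadjusted p below 0.05, with 0 called by edgeR and 0 by DESeq2. These were EPSTI1, higher by 1.08 ± 0.26 (limma adjusted p = 0.19), and STAT2, higher by 0.39 ± 0.14 (0.468). At day 4, 0 of 47 were called, against 0.280% of all genes, and 5 had an unadjusted p below 0.05, with 0 called by edgeR and 2 by DESeq2. Of all genes, DESeq2 called 3.42% there. The DESeq2 calls were DDX58 and SAMD9, both lower in shIL1R cells. SAMD9 had 1460 and 1033 normalized counts in shIL1R and 1999 and 2204 in shScr cells at day 4, a log2 difference of −0.77 ± 0.15 (limma adjusted p = 0.066), and DDX58 had 783 and 493 against 986 and 1061, −0.72 ± 0.18 (0.0948). Their libraries did not overlap. The median log2 difference of the 47 was 0.10 at day 0 and 0.05 at day 4, with at most 0.01 in size for all genes.

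At day 10, 11 genes were higher in shIL1R than in shScr cells and 0 lower, that is 11 of 47, against 9.21% of all genes called, 4.37% higher and 4.85% lower. The median log2 difference of the 47 was 0.59 and of all genes −0.00. In 23 of the 47 genes (48.9%) both shIL1R libraries lay above both shScr libraries, against 24.0% of all genes, and in 1 gene, CMPK2, both lay below, against 25.0%. The 23 include MX2 and OAS2, which were tested only by way of shIL1R day 10, so the filter favours this order. In growing cells at day 0 the order already held in 19 of the 47 (40.4%) and the reverse in 3 (6.38%). At day 4 it held in 10 and the reverse in 9. For these 2 days no share of all genes is given. At day 0 the log2 difference was positive in 32 of the 47, against 6636 of 13924 genes, and at day 10 in 43, against 6889. Without the 5 genes tested by way of that group (MX2, OAS1, OAS2, OASL and RSAD2) the median was 0.57 over 42. By edgeR 11 and by DESeq2 12 of the 47 were called, against 9.32% and 11.9% of all genes. Fitted on the 4 day 10 libraries alone, 0 of 47 were called by limma, against 0.524% of all genes, so the calls use the spread of all 6 groups. They also rest on single libraries, and calls over all genes moved with the library left out as well. The median log2 difference was 0.23 over 47 genes without replicate 2 of shScr day 10. It was 0.40 over 44 genes without replicate 2 of shIL1R day 10. Without replicate 1 of shScr day 10 the median was 0.96 over 46 genes, and without replicate 1 of shIL1R day 10 0.73 over 45. Set library against library, replicate 1 of shIL1R was higher than replicate 1 of shScr in 26 of 47 genes (median log2 difference 0.02), and replicate 2 higher than replicate 2 in 42 of 47 (median 1.08). Replicate 1 of shIL1R was higher than replicate 2 of shScr in 45 of 47 (0.64), and replicate 2 of shIL1R than replicate 1 of shScr in 39 of 47 (0.42).

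The 11 genes include 3 membrane proteins of the IFITM family, which block entry of enveloped viruses. IFITM2 had 3128 and 4067 normalized counts in shIL1R and 2089 and 2067 in shScr cells at day 10, a log2 difference of 0.78 ± 0.12 (limma adjusted p = 0.0055; 0.0627 without replicate 2 of shScr day 10, where the difference was 0.77). IFITM1 had 1526 and 2500 against 1187 and 646 (1.16 ± 0.26, limma adjusted p = 0.024) and IFITM3 8210 and 9813 against 6308 and 5777 (0.57 ± 0.13, 0.0214). IFITM2 and IFITM3 are near copies and reads shared between them may have been split or dropped in counting, as may those of the IFIT, OAS, MX, GBP and SAMD9 pairs. In all 3 IFITM genes both shIL1R libraries lay above both shScr libraries.

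In the ISG15 system a conjugating and a removing enzyme were called higher in shIL1R cells. USP18 had 205 and 511 normalized counts in shIL1R against 133 and 61.8 in shScr cells, a log2 difference of 1.82 ± 0.40 (limma adjusted p = 0.0199), and UBE2L6 had 2102 and 2454 against 1847 and 1503 (0.45 ± 0.12, 0.0469). ISG15 itself, with 439 and 940 against 435 and 287, was not called (0.86 ± 0.30, 0.0973). UBA7, the enzyme that activates ISG15 and no member of the 49, had 240 and 579 against 171 and 97.2 (1.52 ± 0.34, 0.0229). Without replicate 2 of shIL1R day 10 the differences were 1.17 for USP18 and 0.89 for UBA7, and neither was called.

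Of the other called genes IFIT1 had 73.1 and 221 against 36.6 and 17.2 (2.29 ± 0.53, limma adjusted p = 0.0243) and IFI6 1048 and 2067 against 794 and 371 (1.44 ± 0.35, 0.0293). OAS2 had 32.4 and 68.9 against 9.44 and 3.04 (2.90 ± 0.69, 0.0277), and it was tested only because both shIL1R libraries of day 10 reached 10. Without the 5 genes tested by way of that group (MX2, OAS1, OAS2, OASL and RSAD2) 10 of 42 were called. PARP9, which with the ligase DTX3L modifies histones and viral proteases, had 359 and 729 against 309 and 125 (1.38 ± 0.38, 0.0465). GBP1 was higher in shIL1R cells with 440 and 568 against 335 and 282 (0.70 ± 0.14, 0.0126). EPSTI1 had 108 and 110 against 61.4 and 49.6 (0.96 ± 0.26, 0.0399). Its shIL1R libraries were also the higher ones at day 0. The same held at day 0 for GBP1, IFI6, IFIT1, IFITM1, IFITM3, PARP9 and UBE2L6, none of them called there. It held for OAS2 as well, at 0.898 and 0.861 against 0 and 0. IFITM2 overlapped at day 0, and USP18 was lower in both shIL1R libraries. The share of all genes with such an order at day 0 is not given, so the order of these genes is a description. All 11 calls were lost without replicate 2 of shScr day 10, where the differences were 0.89 for IFI6, 0.72 for IFITM1 and 0.72 for PARP9. Without replicate 2 of shIL1R day 10 they were 1.5 for IFIT1, 0.95 for IFI6 and 0.87 for PARP9. MX1, OAS1, OAS3, MX2, IFI27 and IFIT2 had log2 differences of 1.36 to 3.27 with standard errors of 0.44 to 1.24 and were not called.

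**Figure D4:**
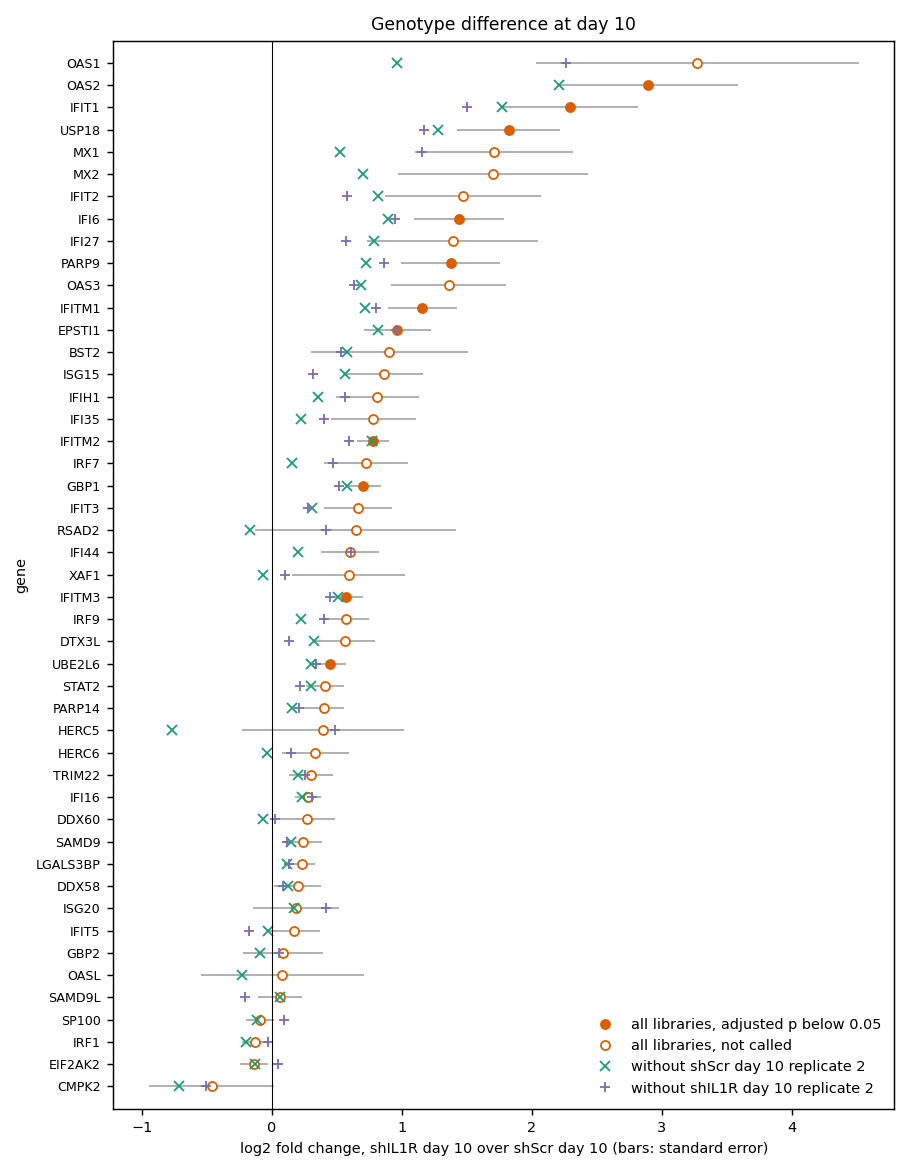
Log2 fold change of shIL1R day 10 over shScr day 10 for the 47 genes with its standard error (filled circles: limma adjusted p below 0.05), and the same value without replicate 2 of shScr day 10 (crosses) or without replicate 2 of shIL1R day 10 (plus signs). The 11 called genes lie between 0.45 and 2.90, and most crosses and plus signs lie nearer to 0 than the circles.

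Whether the change since day 0 differed between genotypes was tested as an interaction, in which the day 0 libraries also enter. At day 4, 0 of 47 genes passed, against 0.0287% of all genes (limma), with 4 at an unadjusted p below 0.05 and 0 by edgeR and 0 by DESeq2. At day 10, 0 of 47 passed, against 2.41% of all genes, with 10 at an unadjusted p below 0.05, 0 by edgeR and 2 by DESeq2. Of all genes 2.43% passed by edgeR and 5.76% by DESeq2, so the 2 calls are no excess. The median interaction at day 10 was 0.47. The DESeq2 calls were IFITM2 (0.70 ± 0.18 in limma, adjusted p = 0.0651) and USP18 (2.06 ± 0.56, 0.0818), both with a larger change in shIL1R cells. Without replicate 1 of shIL1R day 10 the median interaction was 0.51 over 45 genes, and without replicate 1 of shScr day 10 0.75 over 46. It was 0.17 over 47 genes without replicate 2 of shScr day 10 and 0.26 over 44 without replicate 2 of shIL1R day 10. Without replicate 2 of both it was −0.03 over 44 genes.

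Interferons themselves were scarcely detected. Of 21 ligand genes 14, among them IFNB1, IFNG and IFNL1 to IFNL3, were at 0 in all 12 libraries, which at 324275492 reads in total allows up to 3 reads each. The 20 that were too low to test had 31 reads together and at most 4 in a library. IFNE, an epithelial type I interferon, was the exception. At days 0, 4 and 10 its normalized counts were 11.7 and 9.47, 67.4 and 78.6, and 44.4 and 31.6 in shIL1R cells, and 11.02 and 15.0, 45.7 and 76.7, and 55.5 and 61.8 in shScr cells. It rose by day 4 by 2.68 ± 0.31 in shIL1R and 2.12 ± 0.31 in shScr cells (limma adjusted p = 9.97e-05 and 0.000361), and by day 10 by 1.74 ± 0.31 and 2.10 ± 0.31 (0.000562 and 0.000125). It did not differ detectably between genotypes at day 10 (−0.63 ± 0.31).

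Receptors and signalling parts changed modestly. Of 10 genes 9 were tested, and at day 10 relative to day 0 2 rose and 2 fell in shIL1R cells (44.4%, against 60.3% of all genes called) and 4 rose and 1 fell in shScr cells (55.6%, against 63.8%). IFNGR2, a subunit of the interferon gamma receptor, rose by 0.90 ± 0.07 and 1.06 ± 0.07 (limma adjusted p = 1.95e-06 and 4.63e-07) and JAK2, a kinase of that receptor, fell by 1.13 ± 0.13 and 1.18 ± 0.13 (2.15e-05 and 1.28e-05). IFNAR1 went opposite ways, with 1466 and 1517 at day 10 against 1911 and 2079 at day 0 in shIL1R cells and 2052 and 2364 against 1685 and 1712 in shScr cells. Its interaction at day 10 was −0.79 ± 0.13 (limma adjusted p = 0.0156; 0.0735 to 0.0887 without any of 4 single libraries), and it was lower in shIL1R cells at day 10 by 0.56 ± 0.09 (0.00624; 0.077 without replicate 2 of shScr day 10). 

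Negative regulators moved in both directions. At day 10 3 of 14 tested rose and 3 fell in shIL1R cells and 5 rose and 3 fell in shScr cells relative to day 0 (42.9% and 57.1% called, against 60.3% and 63.8% of all genes), in a list that also holds UBA7 though that enzyme promotes ISG15 conjugation. For SOCS1, the inhibitor of JAK kinases, normalized counts at days 0, 4 and 10 were 91.6 and 91.2, 28.3 and 22.2, and 21.6 and 33.9 in shIL1R cells, and 110 and 67.6, 28.5 and 24.6, and 67.3 and 63.8 in shScr cells. It fell by day 4 by 1.83 ± 0.29 and 1.67 ± 0.29 (limma adjusted p = 0.000712 and 0.00109) and at day 10 was lower in shIL1R than in shScr cells by 1.25 ± 0.29 (0.0256).

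Of the genes that sense nucleic acids upstream of interferon, 15 of 19 were tested, and 4 rose and 3 fell in shIL1R cells and 3 rose and 4 fell in shScr cells by day 10 (46.7% in each, against 60.3% and 63.8% of all genes). MB21D1 (cGAS), the sensor of cytosolic DNA, had 68.4 and 75.6 normalized counts at day 10 against 135 and 127 at day 0 in shIL1R cells and 54.3 and 24.3 against 129 and 125 in shScr cells, falls of 0.85 ± 0.30 and 1.77 ± 0.30 (limma adjusted p = 0.0288 and 0.000342). RNASEH2A, a subunit of the nuclease that removes ribonucleotides from DNA and a gene of proliferating cells, had log2 changes of −2.28 ± 0.18 and −3.31 ± 0.18 (1.67e-06 and 9.26e-08). TRIM25, the ubiquitin ligase that acts on DDX58, rose by 0.90 ± 0.11 and 0.98 ± 0.11 (3.28e-05 and 1.44e-05).

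Class I antigen presentation, another interferon target, rose in part at day 10. Of 15 genes 9 were tested, and relative to day 0 6 rose and 0 fell in shIL1R cells and 8 rose and 1 fell in shScr cells, against 30.0% and 32.5% of all genes called higher. HLA-E, HLA-F, TAP1 and PSMB9 were listed at 0 in all libraries, and TAP2 and PSMB8 had at most 8.86 and 3.39 normalized counts in a library. Whether reads of these genes were lost in counting was not tested, so a 0 here does not show that a gene is silent. HLA-B had 4318 and 4332 normalized counts at day 10 against 1577 and 1639 at day 0 in shIL1R cells and 5545 and 4300 against 1329 and 1298 in shScr cells, rises of 1.43 ± 0.13 and 1.89 ± 0.13 (limma adjusted p = 3.36e-06 and 3.26e-07). B2M, the light chain of class I, rose by 0.72 ± 0.11 and 0.78 ± 0.11 (limma adjusted p = 0.000234 and 0.000116). Between genotypes at day 10 0 of the 9 were called by limma, against 9.21% of all genes, 0 by edgeR and 0 by DESeq2, with 1 at an unadjusted limma p below 0.05 and a median log2 difference of 0.07 beside 0.59 for the 47 interferon-stimulated genes. The allele-rich HLA genes share reads, so their levels are uncertain.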

How the data were processed

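The values are normalized counts per gene in 12 poly(A) RNA-seq libraries, deposited by the authors in 1 table as a signal (read counts scaled by library). Per the submitters' processing notes the tools were TopHat, HTSeq and DESeq2 with build hg19; versions, gene annotation and how strand was used in counting are not given in the sources used here. Dividing each library by its smallest value above 0 gave whole reads for 100% of values (within 0.001 reads), 24140324 to 30127727 reads per library, so counting error is small for well-read genes and large near the floor of 3 reads. Tests covered the 13924 genes that reach 10 normalized counts in 2 or more libraries. The fit was limma 3.58.1 (R 4.3.3) on log2(normalized count + 1), whose fold changes understate those of low genes, with 6 group means, eBayes with trend and Benjamini-Hochberg adjustment over all genes of a contrast, called below 0.05. Of 11 contrasts 6 compare days, 3 genotypes and 2 are interactions, and contrasts with a group in common share its libraries. Each ± is a standard error from this fit, with 2 libraries per group. Alternatives were the pseudocount, the filter, TMM and quantile scaling, the replicate number as a block, robust eBayes, a fold minimum, the groups compared alone, each library left out, and edgeR 4.0.16 and DESeq2 1.42.0 on the recovered reads. Between genotypes at day 10 limma called 1283 of 13924 genes.

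The genes, the pathway lists and the markers were chosen with earlier results of these data known. Named are, per contrast, the called genes of the set with the largest changes, up to 8 in each direction with at least 1 of each role group, and called genes of the pathway lists; others were added after their values were seen. A gene of the receptor and signalling list is not reported here and the counts of that list leave it out. The fit was also run on simulated counts whose spread was set in advance, so that run does not measure the spread of these libraries.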

Additional observations from a re-analysis of the deposited data

Results flagged for a closer look

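In 6 cases the change since day 0 went one way in every library of one genotype and the opposite way in every library of the other. How many of all genes tested do the same was not counted, so the 6 are given as a description. At day 4 SAMD9 was lower than day 0 in both shIL1R libraries and higher in both shScr libraries, with a difference of −0.76 ± 0.21 between the log2 changes (limma adjusted p = 0.295). Its neighbour SAMD9L did the same, with −0.73 ± 0.24 (limma adjusted p = 0.341). The interferon receptor gene IFNAR1 differed by −0.53 ± 0.13 (0.278) and MAVS, the mitochondrial adaptor of the RNA sensors, by −0.25 ± 0.12 (0.49), both lower in shIL1R cells. UBA7 differed by 0.61 ± 0.49 (limma adjusted p = 0.689), higher in shIL1R cells. None of these 5 interactions passed in limma. At day 10 IFNAR1 differed by −0.79 ± 0.13, lower in shIL1R and higher in shScr cells than at day 0, and passed (limma adjusted p = 0.0156). With 2 libraries per group, a single library far from its group could not be tested for.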

How the results depend on the processing

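Of 159 calls of the 47 genes over all contrasts, the fit kept 156 and 158 at a pseudocount of 0.5 and 5, 144 without a filter, 159 with TMM, 150 with quantile scaling, 155 with robust eBayes, 155 with edgeR and 152 with DESeq2. With a filter of 50 normalized counts 136 could be compared and 136 were kept. A replicate block kept 153, and a block within genotype 155. The numbers were not shown to pair libraries: deviations of same-numbered libraries correlated at −0.102 to 0.231, and under the block within genotype 1 gene passed the day 10 interaction, against 0. Compared alone, shScr day 4 against day 0 gave 24 calls (14 with all groups) and shIL1R against shScr at day 10 gave 0 (11 with all groups). Of all genes, 45.9% and 0.524% were called in these 2 fits. DESeq2 called 2 genes between genotypes at day 4 and 2 in the day 10 interaction, against 3.42% and 5.76% of all genes. Requiring a log2 change of at least 1 left 4 calls at day 4 and 23 at day 10 in shIL1R cells, 4 and 20 in shScr cells, 16 and 12 from day 4 to day 10 in shIL1R and shScr cells, and 6 between genotypes at day 10.

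Leaving out each library in turn gave 9 to 19 calls at day 4 and 31 to 35 at day 10 in shIL1R cells, 8 to 17 and 20 to 35 in shScr cells, and 19 to 31 and 12 to 27 from day 4 to day 10 in shIL1R and shScr cells. Between genotypes it gave 0 to 0 at day 0, 0 to 4 at day 4 and 0 to 25 at day 10, and for the interactions 0 to 0 at day 4 and 0 to 11 at day 10. A lone library left in a group is taken to vary like the other groups. The number of all genes called moved with the library left out as well, so these ranges are not particular to the family. Without replicate 1 of both day 10 groups, an alternative chosen after seeing the data, there were 22 calls at day 4 in shIL1R and 23 in shScr cells, 5 between genotypes at day 4, 29 of 42 at day 10 and 21 in the day 10 interaction. Without replicate 2 of both there were 22, 23, 5 and 0 of 44. The value of DTX3L in shIL1R cells at day 10 reversed to 0.415 without replicate 1 of that group or of both (−0.451 without replicate 2), and that of SAMHD1 to −0.419 without replicate 2 of that group or of both (0.475 without replicate 1). Without replicate 1 of both, OAS3 from day 4 to day 10 in shScr cells reversed to −0.426, UBA7 at day 10 in shIL1R cells to 0.489 and IFNGR1 from day 4 to day 10 in shIL1R cells to −0.291. The cause was not tested. With 2 libraries per group, genes under about 10 normalized counts (OAS1, OAS2, BST2, RSAD2, MX2) have no firm fold change.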
